A study of Homo sapiens with 4 samples.

Results

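Glial cell line-derived neurotrophic factor (GDNF) family ligands signal through a small set of cell surface receptors, and 9 of the 27011 genes in the count table were examined here. They were the ligand genes GDNF, NRTN and ARTN, the co-receptor genes GFRA1, GFRA2, GFRA3 and GFRA4, and the signalling receptor genes RET and NCAM1. The set was built around GFRA3, which was chosen by its rise in Helz-null cells in these same libraries. NCAM1 was also selected on that comparison, as part of a group of nervous system genes. The remaining members were added as further ligands and receptors of the GDNF family, at a time when earlier results of these data were known. The values of GFRA3 and NCAM1 are therefore given as a description, without a test.

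RNA was sequenced from HEK293T cells, an established human embryonic kidney line, in 2 WT libraries and 2 libraries of a Helz-null line. The Helz-null line was made from HEK293T by Cas9 editing of HELZ, and neither line received a treatment. HELZ encodes a putative RNA helicase that also has a zinc finger, and the protein interacts with the CCR4-NOT deadenylase complex. Because a single edited line was compared with its parent, the loss of HELZ and other differences between the lines cannot be told apart. The WT libraries held 65005666 (replicate 1) and 42342295 (replicate 2) counts, and the Helz-null libraries held 41745401 (replicate 1) and 70464140 (replicate 2) counts. These totals exceed the number of mapped reads given in the methods of the study by about the same factor in the smallest and the largest library, so both mates of a read pair appear to have been counted. The floor was therefore set at 3 read pairs, which corresponded to between 0.0842 and 0.144 CPM (counts scaled to a common library size), a limit that covers counting error only.

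The ligands of this family are secreted dimers that first bind a GFRα co-receptor, a protein held at the outer membrane by a lipid anchor and lacking a kinase of its own. The loaded co-receptor then recruits RET, a receptor tyrosine kinase that activates the RAS-MAPK and PI3K-AKT pathways. GDNF prefers GFRα1, neurturin (NRTN) prefers GFRα2, artemin (ARTN) binds GFRα3, and persephin (PSPN) binds GFRα4. The neural cell adhesion molecule NCAM1 can serve GDNF as an alternative receptor together with GFRα1 and signals through the kinase FYN, and the proteoglycan SDC3 also binds GDNF. In the body, the artemin receptor is best known from sensory and sympathetic neurons, and the GDNF receptor from kidney, enteric nervous system and motor neuron development.

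HELZ itself was measured first as a check of the labels. It stood at 97.6 and 102 CPM in the WT libraries and at 36.1 and 37.04 CPM in the Helz-null libraries. Both Helz-null libraries were far below both WT libraries, with a log2 fold change (log2FC) of -1.44 ± 0.04 (SE, n = 2 per group) and an FDR of 1.43e-23. HELZ RNA was thus reduced and not absent in the Helz-null line. The FDR is the Benjamini-Hochberg adjusted p-value of edgeR's quasi-likelihood test over all genes fitted, and a gene counts as called below 0.005. These p-values measure the spread between the libraries of each line. In bulk RNA, fewer expressing cells and less RNA per cell cannot be told apart.

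Of the 9 members, 8 passed the filter on low counts and entered the fit of 16087 genes, and GFRA4 did not. GFRA2 passed only through its higher counts in the Helz-null libraries. RET was called up-regulated and GFRA1 down-regulated, and GFRA3, NCAM1 and GFRA2 are not counted, since the comparison or the filter selected them on the same values. Across all genes fitted, 1581 (9.83%) were called up-regulated and 1854 (11.5%) down-regulated. Since the comparison itself chose members, nothing is read from their calls against these shares. Scaling by library size without normalization factors gave 2196 genes up and 1449 down, and leaving out Helz-null replicate 2 gave 1043 up. The plot of levels by library shows all 9 members, each on its own axis.

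**Figure D1:**
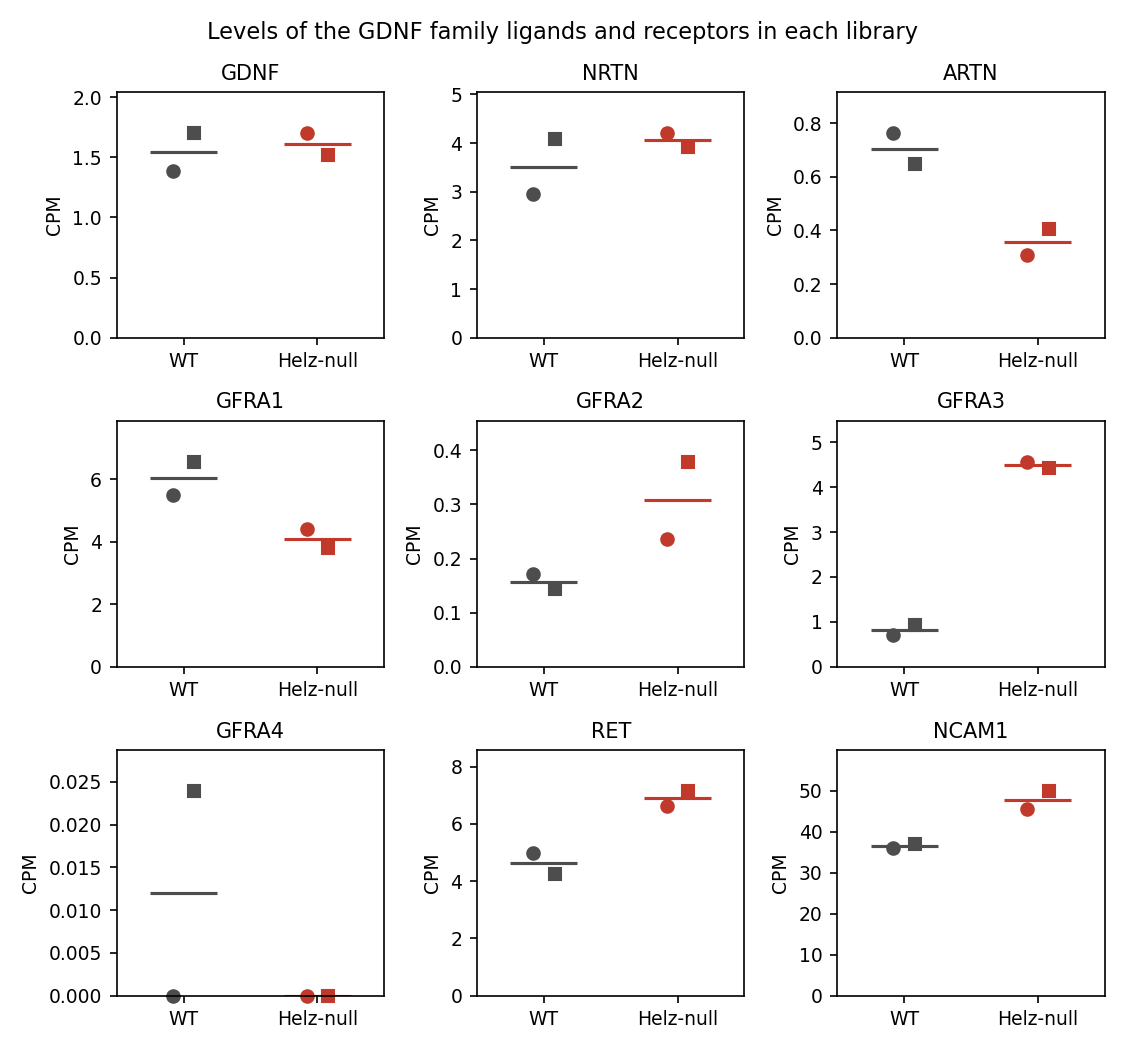
CPM of the 9 members in each library, with WT in grey and Helz-null in red. Circles are replicate 1, squares are replicate 2, horizontal lines are group means, and each panel has its own axis starting at 0 (only 1 count was found for GFRA4). GFRA3 lies at 0.701 and 0.933 CPM in WT and at 4.56 and 4.43 CPM in Helz-null libraries.

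The ligand genes were weakly expressed and none of the 4 fitted was called by edgeR or DESeq2 (1, ARTN, had an unadjusted edgeR p under 0.05). GDNF, the founding ligand, gave 1.39 and 1.70 CPM in WT and 1.70 and 1.51 CPM in Helz-null libraries. The groups overlapped, with a log2FC of 0.07 ± 0.22 (SE) and an FDR of 0.856. The log2FC of GDNF was -0.0915 without WT replicate 1 and -0.0096 without Helz-null replicate 1. NRTN gave 2.94 and 4.09 CPM in WT and 4.21 and 3.91 CPM in Helz-null libraries. Here WT replicate 1 was the low library and WT replicate 2 lay within the Helz-null range, with a log2FC of 0.23 ± 0.16 (SE) and an FDR of 0.286. Without WT replicate 1, the log2FC of NRTN was -0.02.

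ARTN, the ligand that pairs with GFRα3, had 49 and 27 counts in WT and 13 and 29 counts in Helz-null libraries, or 0.763 and 0.646 CPM against 0.307 and 0.407 CPM. After scaling for depth both Helz-null libraries lay below both WT libraries. The log2FC of -0.95 ± 0.38 (SE) did not pass the threshold, with an FDR of 0.0473. The direction was thus opposite to that of GFRA3, in a gene measured by few counts.

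Of the other ligands listed, PSPN had between 2 and 4 counts per library and was not fitted. At so few counts no fold is given for it. GDF15, a distant relative that signals through GFRAL and RET, had 1.25 and 1.41 CPM in WT and 1.44 and 1.04 CPM in Helz-null libraries. The GDF15 groups overlapped, and the log2FC was -0.12 ± 0.25 (SE, FDR 0.753). Per length of transcript, NRTN held between 75.7% and 83.7% of the summed level of GDNF, NRTN, ARTN and PSPN in the 4 libraries, so it was the most abundant ligand RNA in both lines.

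GFRA3 lies on chromosome 5 of GRCh37 (chr5:137588069-137610310, minus strand) and encodes the artemin co-receptor. It had 45 and 39 counts in WT and 193 and 316 counts in Helz-null libraries. As CPM, these were 0.701 and 0.933 against 4.56 and 4.43. The replicates of each line lay close together, and the lowest Helz-null library was several times above the highest WT library. The means were 0.817 ± 0.164 CPM (SD, n = 2) in WT and 4.50 ± 0.0915 CPM (SD, n = 2) in Helz-null cells. The log2FC was 2.49 ± 0.20 (SE), a 5.62-fold difference, and 7 of the 16087 genes fitted had a higher log2FC. Over 13 alternative settings the log2FC of GFRA3 ranged from 2.26 to 2.68.

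Among the co-receptors, GFRA3 and GFRA1 moved in opposite directions. GFRA1, the GDNF co-receptor, gave 5.50 and 6.55 CPM in WT and 4.42 and 3.79 CPM in Helz-null libraries. The Helz-null libraries were both below the WT libraries, by a smaller margin than seen for GFRA3. The log2FC was -0.56 ± 0.13 (SE) with an FDR of 0.00134. The call was lost with DESeq2 (adjusted p = 0.0125), without WT replicate 2 (FDR 0.0171) and without Helz-null replicate 2 (FDR 0.0446), while the direction was negative in all 12 alternatives that fitted the gene.

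GFRA2, the neurturin co-receptor, had only 11 and 6 counts in WT and 10 and 27 counts in Helz-null libraries. Scaled for depth, these were 0.171 and 0.144 CPM against 0.236 and 0.379 CPM. Both Helz-null libraries lay above both WT libraries, and they differed from each other as well. The counts summed to 17 in WT and 37 in Helz-null libraries, and no test is given for GFRA2 because it passed the filter only through the Helz-null libraries. GFRA4, the persephin co-receptor, had 1 count in WT replicate 2 and 0 in the other libraries, and GFRAL, the GDF15 receptor, had 0 counts in all 4 libraries. Both lay under the floor in all libraries and no fold is given for them.

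The makeup of the co-receptor RNA differed between the lines on the scale of FPKM, which divides CPM by the length of the gene in kilobases and allows levels of different genes to be compared. The summed level of GFRA1 to GFRA4 was 0.985 and 1.22 FPKM in WT and 2.89 and 2.80 FPKM in Helz-null libraries. GFRA1 made up 58.0% and 55.7% of that sum in WT and 15.9% and 14.0% in Helz-null libraries. GFRA3 made up 36.8% and 39.5% in WT and 81.7% and 81.9% in Helz-null libraries. On this scale the predominant co-receptor RNA was GFRA1 in both WT libraries and GFRA3 in both Helz-null libraries. The shares depend on the gene widths, 9626 bases for GFRA1 and 1931 for GFRA3. By CPM the Helz-null levels were closer, at 4.42 and 3.79 for GFRA1 and 4.56 and 4.43 for GFRA3. The FPKM ratio of GFRA3 over GFRA1 was 0.635 and 0.710 in WT and 5.14 and 5.83 in Helz-null libraries. The shift in this ratio was made up mainly of the rise of GFRA3. These shares include the values that chose GFRA3 and were not tested.

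**Figure D2:**
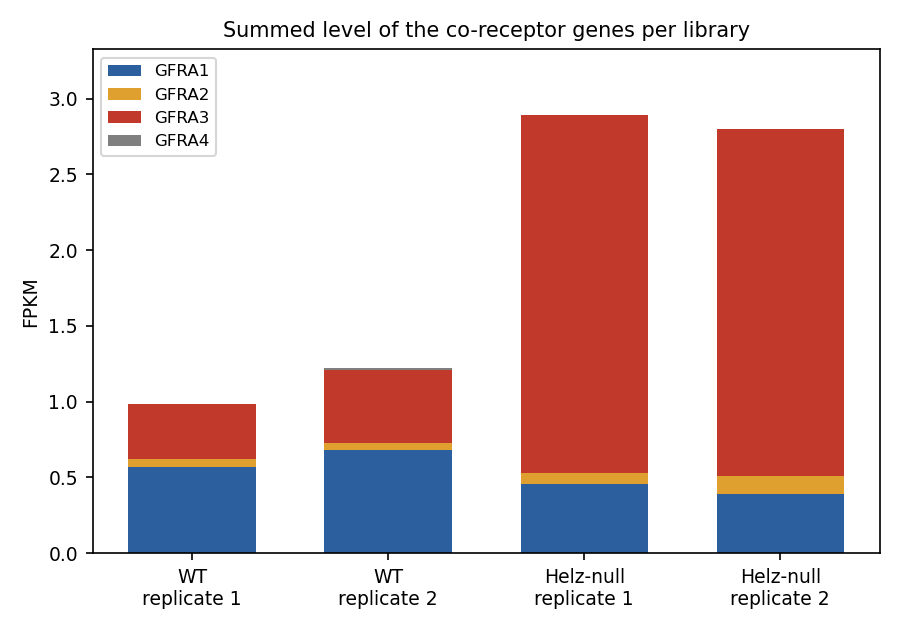
Stacked bars of the FPKM of GFRA1, GFRA2, GFRA3 and GFRA4 in each library (axis from 0). The bars sum to 0.985 and 1.22 FPKM in WT and to 2.89 and 2.80 FPKM in Helz-null libraries, and the GFRA3 segment takes 81.7% and 81.9% of the Helz-null bars.

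RET, NCAM1 and SDC3, the 3 listed signalling receptors, had higher levels in Helz-null than in WT libraries. NCAM1 was selected on this comparison, and 9.83% of all genes fitted were called up-regulated. Nothing is therefore read from the shared direction of the 3 genes. RET, the kinase shared by all GFRα proteins, gave 4.999 and 4.26 CPM in WT and 6.64 and 7.15 CPM in Helz-null libraries. Both Helz-null libraries lay above both WT libraries, and the replicates of each line differed by less than the groups did. The log2FC was 0.57 ± 0.12 (SE) with an FDR of 0.000342. RET was not called without Helz-null replicate 2, where the log2FC was 0.51 and the FDR 0.0117, and its log2FC was positive under all 12 alternatives in which it was fitted.

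NCAM1, the member with the highest level, gave 36.1 and 36.96 CPM in WT and 45.6 and 49.97 CPM in Helz-null libraries. The groups were separate, with Helz-null replicate 2 the highest. The log2FC was 0.40 ± 0.05 (SE), given without a test because NCAM1 was selected on this comparison. SDC3, a heparan sulfate proteoglycan that binds GDNF, gave 64.6 and 66.0 CPM in WT and 90.8 and 93.6 CPM in Helz-null libraries. The replicates nearly coincided within each line, and the log2FC of SDC3 was 0.50 ± 0.04 (SE, FDR 2.24e-12).

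**Figure D3:**
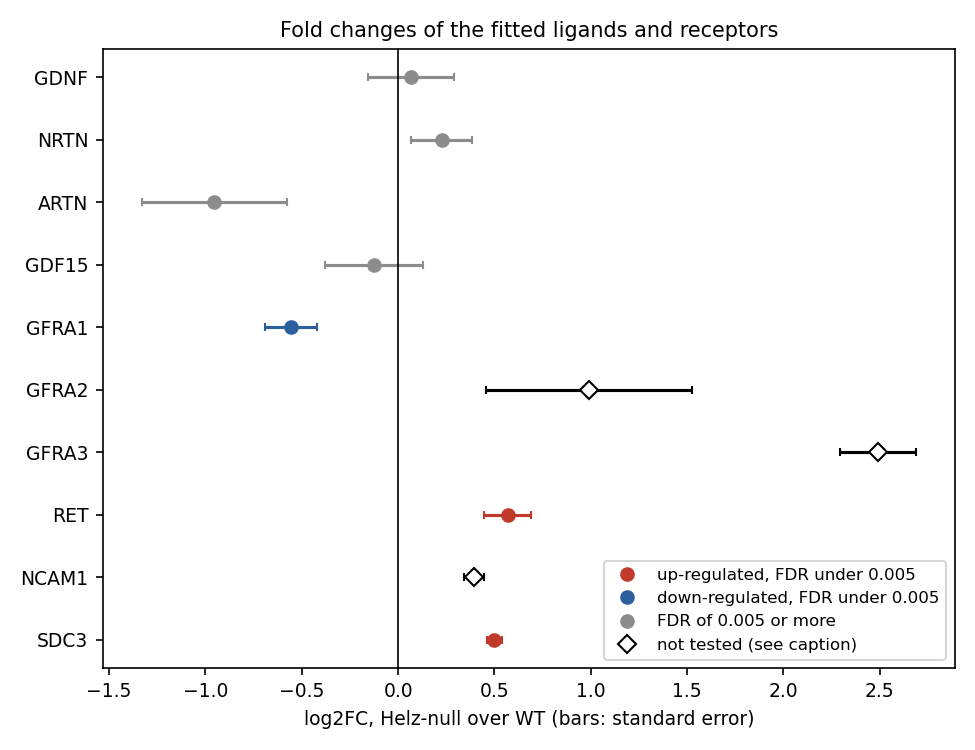
log2FC of Helz-null over WT, with bars of 1 standard error, for the fitted ligands, co-receptors and signalling receptors, with genes called up in red, called down in blue and not called in grey, and open diamonds for genes not tested because the comparison (GFRA3, NCAM1) or the filter (GFRA2) selected them. GFRA3 lies at 2.49, RET at 0.57, SDC3 at 0.50 and GFRA1 at -0.56.

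Ranked by FPKM, GFRA3 took a different place among the members in each line, and the order of weaker members shifted as well. In WT, NCAM1 (4.23 and 4.34 FPKM) was followed by NRTN (2.67 and 3.71), RET (0.781 and 0.666) and GFRA1 (0.571 and 0.681). Next in WT came GFRA3 (0.363 and 0.483), GDNF (0.332 and 0.406) and ARTN (0.393 and 0.332), whose ranges overlapped so that their order was not resolved, and the ranges of RET and GFRA1 overlapped as well. In Helz-null libraries GFRA3 (2.36 and 2.30 FPKM) stood between NRTN (3.81 and 3.54) and RET (1.04 and 1.12), with no overlap to either. Below RET in these libraries, GFRA1 (0.459 and 0.393) and GDNF (0.407 and 0.362) overlapped, and ARTN (0.158 and 0.209) lay under both. By FPKM, RET was thus above GFRA3 in both WT libraries and below it in both Helz-null libraries. The FPKM ratio of RET over GFRA3 was 2.15 and 1.38 in WT and 0.439 and 0.487 in Helz-null libraries. By CPM, which is not divided by length, RET was above GFRA3 in every library. For scale, the median gene fitted had 6.47 FPKM, above every member.

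The promoters of GFRA3 and RET, a co-receptor and its kinase that both had higher RNA levels in Helz-null cells, are shown to allow their composition to be compared. Each window of 300 bases runs from upstream of the annotated start into the first exon, was taken from RefSeq on GRCh38.p14 and is written 5′ to 3′ on the strand of the gene. The GFRA3 window is chr5:138274572-138274871 (minus strand) and the RET window is chr10:43076819-43077118 (plus strand). Capitals mark the GC box letters GGGCGG, searched on both strands, so that CCGCCC is marked too, and neighbouring matches can run together.
GFRA3: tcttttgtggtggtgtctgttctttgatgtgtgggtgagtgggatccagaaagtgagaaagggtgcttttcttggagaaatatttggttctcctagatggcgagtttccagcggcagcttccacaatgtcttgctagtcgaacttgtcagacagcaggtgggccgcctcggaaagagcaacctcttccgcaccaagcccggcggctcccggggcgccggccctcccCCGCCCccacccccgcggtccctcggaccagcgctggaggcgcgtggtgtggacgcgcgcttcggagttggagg
RET: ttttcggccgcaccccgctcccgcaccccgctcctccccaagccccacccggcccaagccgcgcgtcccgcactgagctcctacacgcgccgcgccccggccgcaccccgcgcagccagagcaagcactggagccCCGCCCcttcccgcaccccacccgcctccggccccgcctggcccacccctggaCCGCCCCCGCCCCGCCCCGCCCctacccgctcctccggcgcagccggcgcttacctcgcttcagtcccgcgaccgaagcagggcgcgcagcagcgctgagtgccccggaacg
The GFRA3 window held 1 GC box and the RET window held 5, most of them in a cluster. GC made up 61.3% of the GFRA3 window and 78.7% of the RET window, against a median of 58.7% over all 35116 promoter windows, and the windows held 22 and 41 CpG dinucleotides. The first parts of the windows differed most, since the GFRA3 window opened with a stretch rich in T and G while the RET window was rich in C throughout.

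Promoter windows were found for 7 of the 9 members, 14 windows in all because GDNF, GFRA1 and RET have several starts. The GC box occurred in 45.0% of all windows, the CCAAT letters in 34.6% and the TATAAA letters in 11.5%, each counted on both strands, and none of these motifs contains another. The second RET window held 1 GC box. NRTN held 6 GC boxes in its single window, ARTN and GFRA4 held 1 each, and 1 of the 4 GFRA1 windows and 1 of the 4 GDNF windows held 1. CCAAT occurred in 1 GFRA1 window and 1 GDNF window, and TATAAA in no window of a member. The SDC3 window held 6 GC boxes and a GC content of 84.0%. A GC box was therefore found beside up-regulated, down-regulated and uncalled genes alike, and a match of letters is a description of the window only.

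The transcripts of the members differed widely in their 3′ UTRs, which in general carry many of the signals for mRNA decay. In the GENCODE annotation on GRCh37 the canonical GFRA3 transcript is 1988 bases long, with 197 bases of 5′ UTR, a coding region of 1203 bases and a 3′ UTR of 588 bases. The GFRA1 transcript, at 9161 bases, has a 3′ UTR of 7473 bases, and that of RET measures 2082 bases. The median 3′ UTR of 13269 fitted genes with an annotated one was 1338 bases, so GFRA3 lies below it and GFRA1 and RET above it. The letters ATTTA, part of AU-rich elements, occurred 1 time in the GFRA3 3′ UTR, 6 times in that of RET, 8 times in that of GFRA1 and 1 time in that of NCAM1, and 72.9% of the genes held at least 1. The letters TGTANATA, which Pumilio proteins can bind, were not in the GFRA3 3′ UTR, occurred 1 time each in those of RET and GFRA1 and 2 times in that of NCAM1, and 30.1% of the genes held at least 1.

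Beyond the receptors, 80 further genes of the pathway were listed by role, and 62 of them were fitted. Of these, 6 (9.68%) were called up-regulated and 6 (9.68%) down-regulated, shares near those of all genes fitted (9.83% and 11.5%), so the counts are no result about the pathway. Their median log2FC was 0.004, against -0.0016 for all genes fitted. Genes called up-regulated included SDC3, FYN, GRB2, DOK4 and BRAF, and genes called down-regulated included MAP2K1, AKT1, ETV4 and HOXB5. The up-regulated count was 3 without Helz-null replicate 1 and 3 without Helz-null replicate 2, where only SDC3, FYN and DOK4 were called.

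In the NCAM arm, which comprises adhesion molecules, sialyltransferases that modify NCAM and the kinases downstream, 1 of 4 fitted genes (25%) was called up-regulated, against 9.83% of all genes fitted, and 3 of the 7 listed were not fitted. FYN, the kinase that binds NCAM1 at the membrane, gave 81.7 and 82.0 CPM in WT and 103 and 103 CPM in Helz-null libraries. Its replicates nearly coincided, and the log2FC was 0.34 ± 0.04 (SE, FDR 3.63e-09). NCAM2, a relative of NCAM1, had 8 and 4 counts in WT and 0 in both Helz-null libraries. The focal adhesion kinase PTK2 was not called, and CHL1 had 0 counts in all libraries.

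The RET adaptors and effectors bind the phosphorylated receptor or act next to it. Of 21 fitted genes among 25 listed, 2 (9.52%) were called up-regulated and 0 down-regulated by edgeR, against 9.83% and 11.5% of all genes fitted, so the count is no result about the adaptors. There were 0 down-regulated by DESeq2, and 4 higher and 3 lower genes at an unadjusted edgeR p under 0.05. DOK4, a docking protein for RET, gave 12.6 and 11.9 CPM in WT and 18.7 and 17.9 CPM in Helz-null libraries, and its groups were well apart (log2FC 0.58 ± 0.08, SE, FDR 1.88e-07). GRB2, the adaptor that brings SOS to receptors, gave 183 and 184 CPM in WT and 200.8 and 200.5 CPM in Helz-null libraries. This was a small difference with tight replicates, a log2FC of 0.13 ± 0.03 (SE, FDR 0.00083), which was not called without Helz-null replicate 1 or without Helz-null replicate 2.

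In the RAS-MAPK and AKT group all 13 listed genes were fitted, with 2 (15.4%) called up and 4 (30.8%) down, against 9.83% and 11.5% of all genes fitted. AKT1, a kinase of the PI3K pathway, gave 199.999 and 199.6 CPM in WT and 171 and 169 CPM in Helz-null libraries. Both Helz-null libraries were lower, with a log2FC of -0.23 ± 0.03 (SE, FDR 2.13e-07), while AKT2 was not called and its groups overlapped. MAP2K1, a kinase of the MAPK cascade, gave 93.6 and 99.8 CPM in WT and 71.7 and 75.6 CPM in Helz-null libraries, with a log2FC of -0.39 ± 0.04 (SE, FDR 1.62e-09). The calls of MAP2K1 and AKT1 held in all 13 alternatives.

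BRAF, a kinase upstream of MAP2K1, gave 10.7 and 12.4 CPM in WT and 14.7 and 14.3 CPM in Helz-null libraries. It was higher in both Helz-null libraries, with a log2FC of 0.34 ± 0.08 (SE, FDR 0.00166), and ARAF was not called. The call of BRAF was lost in 4 of 13 alternatives (DESeq2, without WT replicate 1, without Helz-null replicate 1 and without Helz-null replicate 2), where the FDR reached 0.0712.

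The targets and feedback genes include ETS factors that GDNF induces through RET and the SPRY, SPRED and DUSP inhibitors of the MAPK pathway, and 11 of the 12 listed were fitted. ETV4, one of these ETS factors, was the only one called, and it was down-regulated (9.09% of those fitted, against 11.5% of all genes fitted). It had 95 and 49 counts in WT and 28 and 45 counts in Helz-null libraries, or 1.48 and 1.17 CPM against 0.662 and 0.631 CPM. The groups were apart, with a log2FC of -1.06 ± 0.29 (SE, FDR 0.00424). The call of ETV4 was lost in 6 of the 12 alternatives that fitted it, where the FDR reached 0.0958, including those without WT replicate 1 and without either Helz-null library. ETV5 gave 1.35 and 1.44 CPM in WT and 0.638 and 1.33 CPM in Helz-null libraries, and was not called (FDR 0.256).

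Of the transcription factors listed for their link to RET, 5 of 10 were fitted and HOXB5 was the only one called (20% of those fitted, against 11.5% of all genes called down). HOXB5, a homeobox factor that acts on RET in neural crest, gave 22.0 and 21.7 CPM in WT and 11.3 and 10.7 CPM in Helz-null libraries. Its level was lower in both Helz-null libraries, with a log2FC of -0.998 ± 0.07 (SE, FDR 7.36e-13), while RET was higher. PHOX2A, SOX10 and PAX8 had 4 or fewer counts in each library and were not fitted. In the related neurotrophin family, 6 of 9 genes were fitted and 0 were called by edgeR or DESeq2, while 2 higher and 1 lower gene had an unadjusted edgeR p under 0.05. SORT1, the most abundant of them, had a log2FC of -0.11 ± 0.04 (SE, FDR 0.0178). With WT replicate 1 left out, SORT1 was called down.

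The genes around GFRA3 were examined for their direction. Of 18 genes in the count table whose span came within 500 kb of GFRA3 on GRCh37, 16 were fitted, with 2 (12.5%) called up-regulated and 4 (25%) down-regulated, against 9.83% and 11.5% of all genes fitted, and a median log2FC of 0.04. KIF20A (log2FC 0.24 ± 0.04, SE) and KDM3B (0.14 ± 0.03, SE) were the 2 called up. CDC23 (-0.15 ± 0.04, SE), HSPA9 (-0.10 ± 0.03, SE), REEP2 (-0.22 ± 0.04, SE) and HNRNPA0 (-0.18 ± 0.03, SE) were the 4 called down, and HSPA9 (FDR 0.00488) was called in only 6 of 13 alternatives, losing its call without WT replicate 1, without either Helz-null library and under other scalings. KDM3B and CDC23 were called in 11 of 13 each, where KDM3B lost its call without either Helz-null library and CDC23 without Helz-null replicate 2 and with scaling by library size only. CDC25C, the nearest neighbour at a gap of 10.6 kb, had a log2FC of 0.10 ± 0.06 (SE, FDR 0.263). NME5 reached the largest log2FC among the 16, 0.64 ± 0.18 (SE), without a call (FDR 0.00651), and it was called up in 6 of 13 alternatives, without WT replicate 1 and with scaling by library size only among them. The number called up was 4 without WT replicate 1, 1 without Helz-null replicate 1 and 1 without Helz-null replicate 2. The number called down was 2 without Helz-null replicate 2 and 2 when libraries were scaled by size only.

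Wider windows were chosen after the data were seen. Among fitted genes within 2 Mb whose log2 CPM reached 2, the median log2FC was 0.04 around GFRA3 (24 genes), -0.06 around RET (13 genes), -0.01 around GFRA1 (12 genes) and -0.03 around NCAM1 (18 genes). These medians were close to that of all genes fitted. Around RET, 4 of the 13 genes (30.8%) were called up and 5 (38.5%) down, against 9.83% and 11.5% of all genes fitted. Their log2FC values ran from -0.69 to 1.498, so the genes near RET moved in both directions. The shares called up and down were 12.5% and 16.7% around GFRA3, 0% and 16.7% around GFRA1, and 11.1% and 11.1% around NCAM1. The shares of all genes fitted carry no limit on log2 CPM, unlike those of the windows.

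The 5 genes whose pattern over the 4 libraries was closest to that of GFRA3 were SPIB, TSSC2, TBX4, PADI3 and ZNF385C. Likeness was the Euclidean distance between mean-centred log2 CPM values (prior count of 2) and was 0.15 for SPIB, 0.17 for TSSC2, 0.37 for TBX4, and 0.45 for both PADI3 and ZNF385C. TSSC2 gave 0.872 and 1.08 CPM in WT and 4.80 and 4.85 CPM in Helz-null libraries. ZNF385C, a zinc finger gene, was the most strongly expressed of them, with 4.39 and 3.73 CPM in WT and 22.4 and 23.0 CPM in Helz-null libraries. PADI3, a peptidylarginine deiminase, gave 0.545 and 0.861 CPM in WT and 2.77 and 3.07 CPM in Helz-null libraries. All of these had both Helz-null libraries above both WT libraries, as the distance measure selects.

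SPIB and TBX4, both transcription factor genes, rested on few counts. SPIB had 2 and 2 counts in WT and 14 and 26 in Helz-null libraries. TBX4 had 0 counts in both WT libraries and 8 and 14 in Helz-null libraries, and no fold is given for either gene. With 4 libraries in 2 groups many genes can share such a pattern, and it was selected on the same contrast as GFRA3.

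Markers of several cell types were measured beside these genes to see whether the character of the cells differed. All 6 HEK293T markers were fitted, with LHX1 and NEFM called up-regulated and INA and VIM down-regulated, 33.3% each against 9.83% and 11.5% of all genes fitted. Their summed level was 1469 and 1461 CPM in WT and 1532 and 1517 CPM in Helz-null libraries, most of it VIM. NEFM, a neurofilament gene, gave 236 and 226 CPM in WT and 428 and 425 CPM in Helz-null libraries (log2FC 0.88 ± 0.03, SE, FDR 3.71e-22). INA, another neuronal intermediate filament gene, gave 72.8 and 67.1 CPM in WT and 32.3 and 34.9 CPM in Helz-null libraries (log2FC -1.06 ± 0.05, SE, FDR 6.18e-18). NEFM was thus higher and INA lower in both Helz-null libraries, and their neighbour in the family NEFL was not called.

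The cells in which GFRA3 is best known, sensory and autonomic neurons, were represented by 10 markers, of which 6 were fitted, 1 was called up and 1 down (16.7% each, against 9.83% and 11.5% of all genes fitted). Their summed level was 84.7 and 88.3 CPM in WT and 95.8 and 97.2 CPM in Helz-null libraries, most of it POU4F1. POU4F1, a transcription factor of sensory neurons, gave 55.0 and 58.4 CPM in WT and 69.7 and 70.02 CPM in Helz-null libraries (log2FC 0.30 ± 0.04, SE, FDR 6.87e-07). SCN9A, a sodium channel gene of nociceptors, gave 1.84 and 1.75 CPM in WT and 0.709 and 0.519 CPM in Helz-null libraries (log2FC -1.59 ± 0.27, SE, FDR 2.01e-05). ISL1 (13.7 to 15.8 CPM) and TRPV1 (10.2 to 11.9 CPM) were expressed in all libraries and not called. TH had 0 counts, and SCN10A and DBH had 7 or fewer counts per library, so the markers of these neurons were present in part in both lines.

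Markers of further cell types were measured in the same way. Of the Schwann cell and glia markers, 2 of 6 were fitted and 0 called, with a summed level between 1.43 and 2.01 CPM. Of the fibroblast markers, 5 of 7 were fitted and 0 called (18.5 to 20.1 CPM, COL1A1 leading, DCN at 0). Endothelial markers reached at most 0.851 CPM in sum, with KDR leading, and leukocyte markers at most 4.92 CPM, with CD68 leading, and 0 genes of either list were called. For these 4 lists DESeq2 called 0 genes too, and an unadjusted edgeR p under 0.05 was found for 1 fibroblast and 1 leukocyte gene, both higher in Helz-null libraries. Among the epithelial markers 4 of 5 were fitted and EPCAM, KRT8 and KRT18 (75% of those fitted, against 11.5% of all genes) were called down, 2 of them also by DESeq2, with sums of 97.1 and 99.998 CPM in WT and 76.6 and 76.9 CPM in Helz-null libraries, KRT18 leading. KRT8, a keratin gene, gave 26.8 and 29.4 CPM in WT and 13.6 and 14.6 CPM in Helz-null libraries (log2FC -0.99 ± 0.07, SE, FDR 1.99e-13). The part of the marker genes in the levels of GFRA3 and its partners was not tested.

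Some members share exonic bases with genes on the opposite strand, and the use of strand in counting is not stated. GDNF shares 681 exonic bases with GDNF-AS1 and NCAM1 shares 613 with NCAM1-AS1, both of which are in the count table. GDNF-AS1 had between 10 and 19 counts per library and NCAM1-AS1 between 62 and 147, and neither was called. GFRA1 shares 421 exonic bases, and NCAM1 a further 202 and 187, with genes on the opposite strand that are absent from the count table. Reads from the shared bases cannot be assigned to a strand here, so the values of GDNF, NCAM1 and GFRA1 are uncertain to that extent. The exons of GFRA3, RET and ARTN overlap no other annotated exon.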

How the data were processed

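RNA-Seq was performed on total RNA from HEK293T WT and Helz-null cells (2 libraries each). The authors removed rRNA reads with Bowtie2, aligned the read pairs to the hg19 genome using TopHat2 and deposited raw counts per gene made with QuasR, with a gene width in bases. Versions, annotation, strand use and mate counting are not stated; the totals exceed the mapped reads, as if both mates were counted. A further deposited table of fold changes and p-values from the authors' comparison was not used. Counts were fitted with edgeR 4.0.16 in R 4.3.3 (filterByExpr, TMM, glmQLFit, with a single term for genotype), with an FDR threshold of 0.005. The SE of a log2FC was derived from the test, as the size of the log2FC divided by the square root of the quasi-likelihood F statistic. FPKM used TMM-scaled counts and width. Alternatives were DESeq2 1.42.0, other scalings (RLE, upper quartile, library size only), no filter or FPKM above 2, an FDR under 0.05, halved or thinned counts, a replicate block and leaving out each library. Named genes were the 9 members, HELZ, all ligands, co-receptors and signalling receptors, called pathway genes (some are not named) and the 5 genes closest to GFRA3. Marker, neighbour and uncalled pathway genes named outside this rule were chosen after their values were seen. Members and lists were chosen with earlier results of these data known. The fit was tested on simulated data. The planted changes were larger than those of RET and GFRA1 and left out genes with few counts, so such cases were not covered. Figures were drawn with Python 3.11.15 and matplotlib 3.10.9.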

Additional observations from a re-analysis of the deposited data

How the results depend on the processing

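GFRA3, NCAM1 and GFRA2 were selected by the comparison or the filter and are left out of these counts. Of 61 log2FC values of the remaining fitted members under alternatives, 54 kept their direction and side of the threshold, 4 lost the call (GFRA1 in 3, RET in 1) and 3 changed sign, all in genes that were not called: GDNF without WT replicate 1 (-0.0915, with 0.20 as the highest value without 1 library) and without Helz-null replicate 1 (-0.01), and NRTN without WT replicate 1 (-0.0183, with 0.46 as the highest). Over its alternatives the adjusted p of GFRA1 ranged from 8.46e-05 to 0.0446 and that of RET from 1.29e-05 to 0.0117.

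An FDR under 0.05 gave 2667 genes up and 2924 down, 13 pathway genes up and 10 down, and 2 members down (GFRA1 and ARTN). The filter of FPKM above 2 in at least 1 library tested 3 members (GFRA3 only through its Helz-null libraries), of which 0 were called down, since GFRA1 was not tested. DESeq2 also called 0 members down. Scaling by library size only called 2 neighbours of GFRA3 down. Leaving out 1 library at a time, which leaves a lone library assumed to vary like the other group, gave 1043 to 1607 genes up, 0 to 1 members down, 3 to 7 pathway genes up, 1 to 4 neighbours up and 2 to 4 neighbours down. With a replicate block, 1856 genes were called up and 2098 down, with RET and GFRA1 called. The replicate numbers were not shown to pair samples (correlation of deviations 0.03 over 13738 genes). Exact permutation of 2 against 2 libraries cannot give a two-sided p below 0.333. PSPN and GFRA4 had too few counts to pass the main filter. The fit without a filter tested all 9 members, GFRA4 among them, and no fold is given from it for GFRA4. The cause of each of the other changes was not tested.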
